A study of Rattus norvegicus with 4 samples.

Results

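Microglia are the resident macrophages of the brain, and cultures of newborn cortex grown for astrocytes commonly hold some of them. Their genes Cd68, Fcer1g, Ptprc and Tyrobp were chosen by name from long noncoding RNA (lncRNA) tables of rat cortical astrocyte cultures, in order to describe every transcript listed for them. The rule matched 7 transcript rows of 20524, at 4 loci of 17290. Each row is a noncoding transcript annotated at the coding gene whose name it bears, and no row for the messenger RNA itself was analysed here. With neither strand nor counting program given in the sources used here, reads of the messenger RNA may be among the counts of these rows and cannot be told apart from reads of the noncoding transcripts.

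The study compared 2 groups of 2 libraries. OGD cultures went without oxygen and glucose for 45 min, which the study used as ischemic preconditioning, and recovered for 24 h under normoxia in normal medium. Control cultures were untreated. In both groups the astrocytes came from Wistar rat pups under 24 h old, were subcultured once and grown on coverslips held above neurons, and RNA was taken from the slides. No step that removes microglia is described in the labels, and the labels do not say whether pups were pooled or whether replicates were separate cultures, so the p-values rest on a spread among libraries that could be technical.

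The libraries held 2646300 and 2513804 lncRNA counts in OGD replicates 1 and 2, against 2607020 and 2631684 in control replicates 1 and 2. Correlation of log2 CPM (counts scaled to the library total) across the 9581 tested loci was highest between libraries of the same replicate number, at 0.934 for number 1 and 0.931 for number 2, against 0.914 between the OGD libraries and 0.909 between the controls. These are correlations across loci, which are not independent replicates, and the meaning of the number is not stated in the labels.

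All 4 genes are expressed by innate immune cells, and Ptprc by other nucleated blood cells as well. Tyrobp (also called KARAP or DAP12) and Fcer1g (the common gamma chain of Fc receptors) encode small membrane adaptors that carry an immunoreceptor tyrosine-based activation motif (ITAM). When a partner receptor such as Trem2 or an Fc receptor is engaged, Src-family kinases phosphorylate the motif and it recruits the kinase Syk. Ptprc encodes CD45, the receptor tyrosine phosphatase of nucleated blood cells, which sets the activity of Src-family kinases. Cd68 encodes a heavily glycosylated protein of late endosomes and lysosomes that is abundant in phagocytes.

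The rows held transcripts of 400 to 2173 bases, with spans of 400 to 4793 bases. The Cd68 row (NONRATT005575.2, AceView variant b) lay on chromosome 10 from 56269512 to 56270346, a span of 835 bases around a transcript of 704 bases. The Ptprc row (NONRATT008764.2, variant h) was an unspliced transcript of 2173 bases on chromosome 13 from 55114409 to 55116581. Coordinates are those of the tables, whose genome build is uncertain, and neither exon structure nor strand of the rows was available.

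Fcer1g and Tyrobp each had overlapping rows. The 3 Fcer1g rows were on chromosome 13: variant d (NONRATT008957.2, 576 bases) from 89601896 to 89606688, variant c (NONRATT008958.2, 715 bases) from 89602973 to 89606683, and the unspliced variant b (NONRATT008959.2, 400 bases) from 89605963 to 89606362. The 2 Tyrobp rows were on chromosome 1: variant d (NONRATT000579.2, 669 bases) from 88875447 to 88879305 and, inside that span, the unspliced variant c (NONRATT000580.2, 474 bases) from 88876002 to 88876475. Reads in the shared stretches may have been divided among rows by the counting, so rows of 1 gene are not independent. None of the 7 rows overlapped a listed transcript of another gene.

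**Figure D1:**
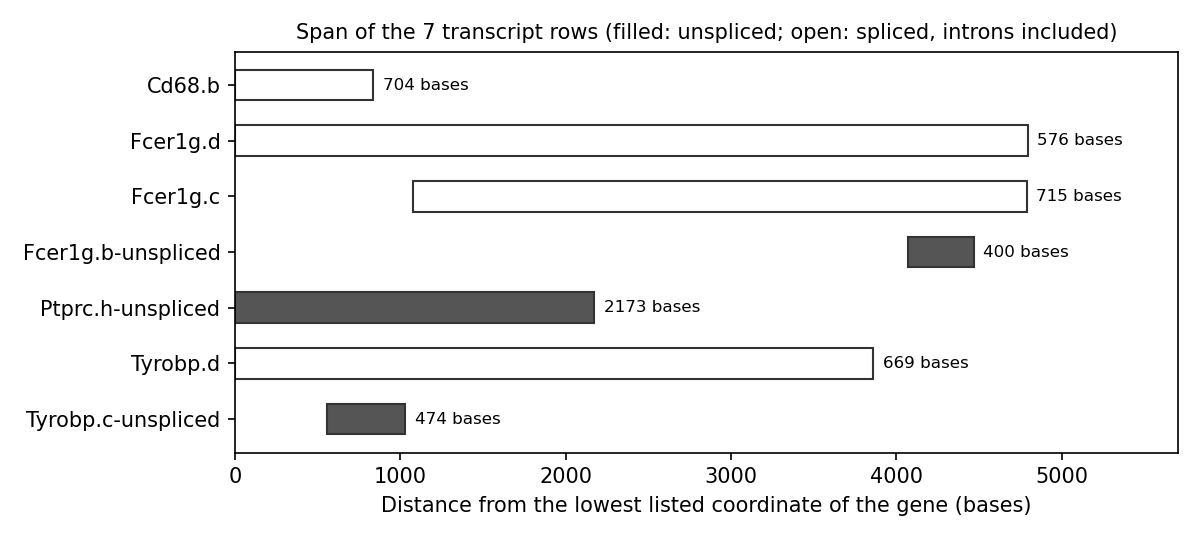
Span of each of the 7 rows in bases from the lowest listed coordinate of its gene; open bars are spliced transcripts drawn with their introns, filled bars are unspliced ones, and the transcript length is printed beside each bar. The 3 Fcer1g rows share a stretch, and the short Tyrobp row of 474 bases lies inside the span of the 669-base one.

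Listed transcripts near Tyrobp and Cd68 bore the names of those genes' RefSeq neighbours. In RefSeq (assembly GRCr8, used for names and order only), Hcst and Nfkbid follow Tyrobp, and Mpdu1 and Eif4a1 flank Cd68, and rows of these 4 names lay within 30 kb of the member in the tables. Hcst encodes another small signalling adaptor of immune cells, and its nearer row began 120 bases beyond the Tyrobp rows. Hcst had 0 and 1 counts in OGD libraries and 1 and 0 in control libraries in that row, and 0 and 2 against 2 and 2 in the second one. Thus Hcst was at or near 0 in each library, whereas its neighbour Tyrobp reached 29 counts. The nearest Eif4a1 row, named for a translation initiation factor, lay 1648 bases from the Cd68 row and had 129 and 112 counts in OGD libraries and 113 and 81 in control libraries. No other listed row lay within 30 kb of the Ptprc row.

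All 4 loci were detected in all 4 libraries, at low levels. FPKM, the deposited level per length of transcript and depth of library, lay between 0.0800 and 1.67 over the rows that were above 0, and the median row above 0 had between 0.807 and 0.948 FPKM depending on the library. Of the 7 rows, 6 were above 0 in every library. By FPKM, the Cd68 row stood above 54.6% and 54.6% of all rows in OGD libraries and above 57.5% and 58.4% in control libraries. The Ptprc row stood above 31.7% and 66.4% in OGD and above 58.4% and 70.9% in control libraries.

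Summed over rows, the order of the genes by level differed between the groups. In OGD libraries Fcer1g averaged 1.39 ± 0.319 FPKM, Tyrobp 1.25 ± 0.717, Cd68 0.796 ± 0.0823 and Ptprc 0.773 ± 0.754 FPKM (SD, n = 2). In that order each gene's range overlapped that of the next. In control libraries Fcer1g averaged 1.99 ± 0.165 FPKM, Ptprc 1.33 ± 0.366, Cd68 0.943 ± 0.115 and Tyrobp 0.400 ± 0.108 FPKM (SD, n = 2), and the ranges of neighbours in the order did not overlap.

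Of the ITAM adaptors, Tyrobp was the 1 locus of the 4 that was higher in OGD libraries. Variant d had 11 and 28 counts in OGD replicates 1 and 2, against 4 and 7 in control replicates 1 and 2, which is 0.659 and 1.67 FPKM against 0.240 and 0.397 FPKM. Both OGD libraries stood above both controls, and OGD replicate 2 had the highest level of any of the 7 rows in any library. The unspliced variant c had 1 count in each of the 4 libraries, so the locus followed variant d.

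Summed over both rows, Tyrobp measured 8.31 ± 5.35 CPM in OGD libraries and 2.50 ± 0.967 CPM in control libraries (SD, n = 2 each). The log2 fold change was 1.71 (SE 0.68), and it did not pass edgeR's quasi-likelihood test over the 9581 loci, with an unadjusted p of 0.0548 and an adjusted p of 1.00. The ratio of summed counts, scaled by library total, was 3.28 with an exact 95% binomial interval of 1.72 to 6.67, which covers counting error only. Within number 1 the OGD library had 2.48 times the CPM of the control (interval 0.815 to 9.0), and within number 2 it had 3.79 times (1.69 to 9.60). Tyrobp reached the minimum level for testing, 3.82 CPM in at least 2 libraries, only in the OGD libraries, so the filter itself favours a Tyrobp locus that is higher there. Without OGD replicate 2 its log2 fold change was 0.85 and without OGD replicate 1 it was 2.27.

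Fcer1g, the other ITAM adaptor, did not share that direction. Its locus had 16 and 23 counts in OGD libraries, against 28 and 32 in control libraries. The groups did not overlap, with OGD below control, by 7.81 ± 2.52 CPM in OGD and 11.5 ± 1.81 CPM in control libraries (SD, n = 2 each). The log2 fold change was -0.56 (SE 0.40; edgeR unadjusted p = 0.223, adjusted p = 1.00), and the counting interval of the ratio, 0.440 to 1.03, included 1.

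The 3 Fcer1g rows differed in how they varied. Variant c had 10 and 10 counts in OGD libraries and 17 and 16 in control libraries, with no overlap. Variant b had 6 and 5 against 5 and 7 counts, which overlapped. Variant d had 0 and 8 counts in OGD libraries and 6 and 9 in control libraries, and its 0 in OGD replicate 1 allows up to 3 counts, or 1.13 CPM of all lncRNA counts, as a one-sided limit (3.69 counts at the upper end of its two-sided interval). The largest share of the locus came from variant c in every library, 62.5% and 43.5% of Fcer1g counts in OGD and 60.7% and 50.0% in control libraries. Variants b and d had too few counts to be tested, and variant c did not pass the test over 10892 rows (log2 fold change -0.66, SE 0.37, edgeR adjusted p = 1.00).

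Ptprc, the leukocyte phosphatase, had, on the longest of the rows, the most counts of the 4 genes in 3 of the libraries and the widest range. It had 13 and 71 counts in OGD libraries, against 58 and 91 in control libraries, or 0.240 and 1.31 FPKM against 1.07 and 1.59 FPKM. OGD replicate 1 stood alone at the low end, while OGD replicate 2 lay between the controls, so the groups overlapped. The highest library was 7.40 times the lowest in CPM, compared with 6.64 times for Tyrobp, 2.12 for Fcer1g and 1.21 for Cd68.

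Ptprc averaged 17.3 ± 17.5 CPM in OGD and 28.7 ± 10.7 CPM in control libraries (SD, n = 2 each). The log2 fold change was -0.74 (SE 0.84; edgeR unadjusted p = 0.420, adjusted p = 1.00). A single library decided it: without OGD replicate 1 the log2 fold change was 0.06, and without OGD replicate 2 it was -2.54. Within number 1, Ptprc in the OGD library was 0.232 of its control (counting interval 0.117 to 0.428), and within number 2 it was 0.816 of it (0.590 to 1.13).

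Cd68, the lysosomal glycoprotein gene of phagocytes, was the steadiest. It had 15 and 13 counts in OGD libraries, against 18 and 16 in control libraries, and 0.855 and 0.738 against 1.02 and 0.862 FPKM. Both OGD libraries were slightly below both controls, yet the 95% counting interval of each count spanned the other 3 counts. The locus averaged 5.54 ± 0.163 CPM in OGD and 6.46 ± 0.124 CPM in control libraries (SD, n = 2 each), with a log2 fold change of -0.22 (SE 0.37; edgeR unadjusted p = 0.572, adjusted p = 1.00). The ratio of summed counts was 0.857 with a counting interval of 0.501 to 1.46, so a difference of the size seen was not detectable at this depth.

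**Figure D2:**
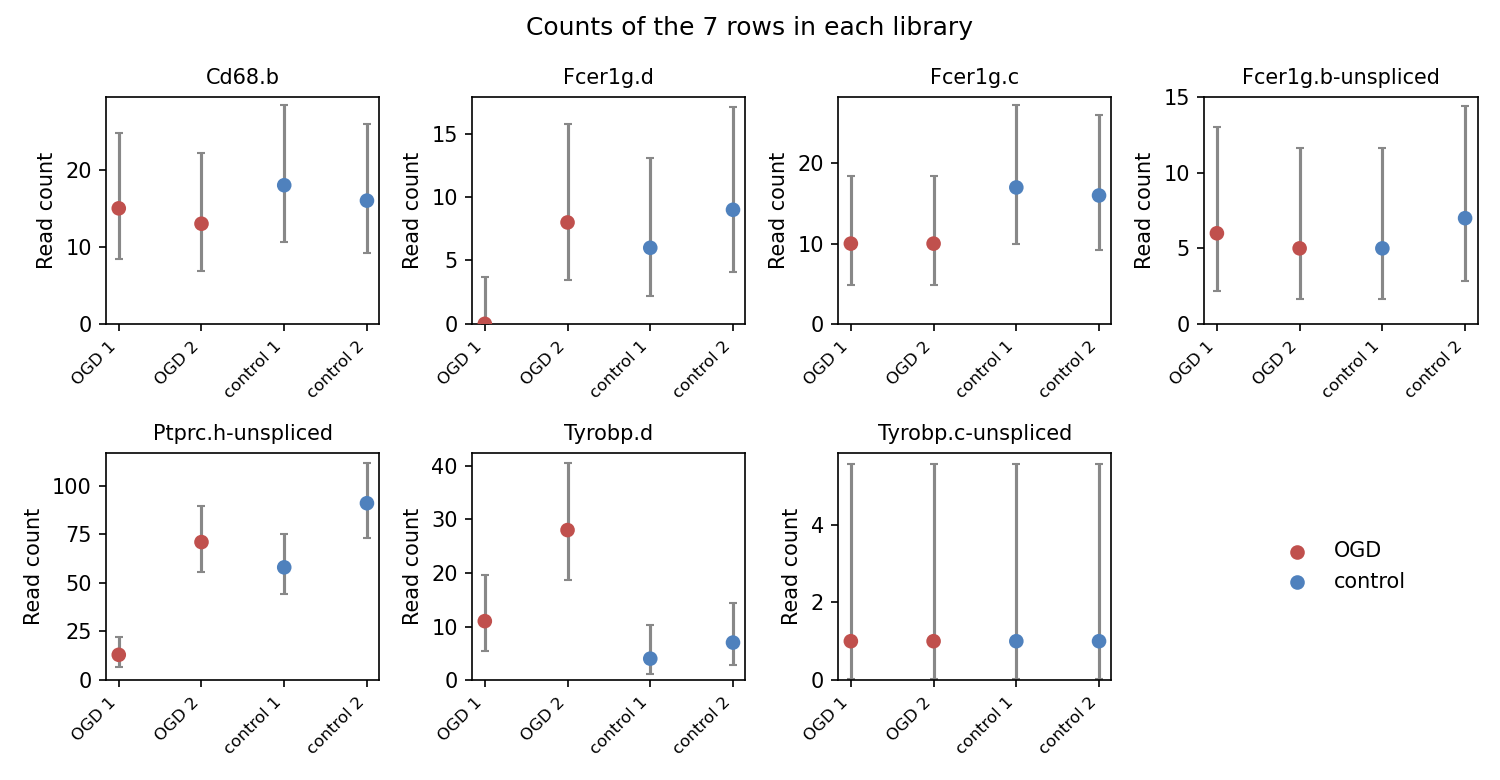
Read counts of the 7 rows in the 4 libraries (red, OGD; blue, control) with exact 95% Poisson intervals, which cover counting error only. Ptprc was lowest in OGD replicate 1 with 13 counts, Tyrobp variant d was highest in OGD replicate 2 with 28 counts, and the intervals of Cd68 span each other's counts.

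In all, 0 of the 4 loci passed edgeR's adjusted threshold of 0.05, where 0.0835% of all tested loci passed (8 of 9581). None had an unadjusted p under 0.05, against 2.33% of all tested loci. DESeq2 called 0 of the 4 as well, against 38 of 9581 loci, with 0 at an unadjusted p under 0.05, against 133 of 9581. With totals implied by FPKM, Tyrobp had an edgeR unadjusted p of 0.0449, where 190 of 9581 loci were under 0.05. With the replicate number as a block Tyrobp had an edgeR unadjusted p of 0.0169, where 441 of 9581 loci were under 0.05. The adjusted p of Tyrobp was at least 0.873 in both settings. The log2 fold change of Tyrobp was 2.27 without OGD replicate 1, and that of Ptprc was -2.54 without OGD replicate 2. The groups did not overlap at 3 of the 4 loci, 1 with OGD higher and 2 with OGD lower, against a background of 28.0% in either direction, 14.0% higher and 14.0% lower. With Tyrobp placed by the filter and Cd68 within counting error, this count is given as a description. Of the 7 rows, 4 had enough counts to be tested and 0 passed, where 0.00918% of all tested rows did; 0 had an unadjusted p under 0.05, against 2.68% of all tested rows. The libraries are bulk samples, so fewer cells of a type and less RNA per cell cannot be told apart.

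**Figure D3:**
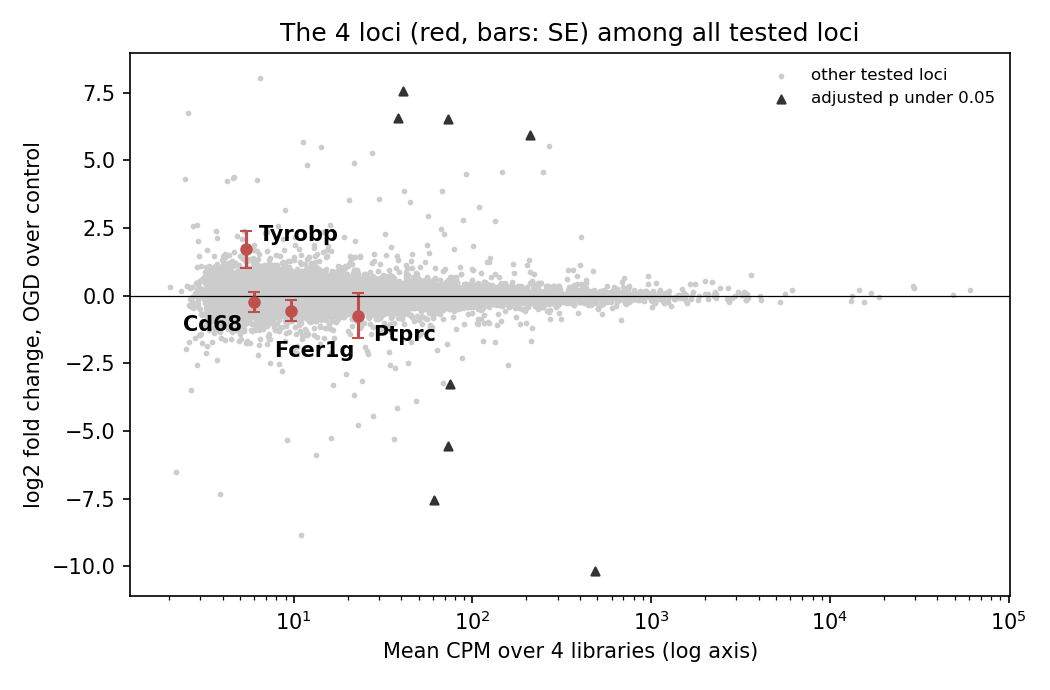
Log2 fold change of OGD over control against mean CPM over the 4 libraries (log axis) for the 9581 tested loci (grey), with the 8 that passed an adjusted p of 0.05 as dark triangles and the 4 microglia and macrophage loci in red with their standard errors. Tyrobp lies at 1.71 and the other members between -0.74 and -0.22, all in the range of loci of like abundance that did not pass.

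The 4 genes did not share 1 direction. Their counts summed to 56 and 136 in OGD libraries, against 109 and 147 in control libraries, and the make-up of the sum differed. Tyrobp gave 21.4% and 21.3% of it in OGD libraries, against 4.59% and 5.44% in control libraries. Ptprc gave 23.2% and 52.2% in OGD libraries, against 53.2% and 61.9% in control libraries.

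A ratio of counts within a library does not depend on scaling. Ptprc counts per Tyrobp count were 1.08 (exact 95% interval 0.456 to 2.60) and 2.45 (1.57 to 3.91) in OGD libraries, against 11.6 (4.70 to 37.1) and 11.4 (5.53 to 27.1) in control libraries. The 2 controls were nearly alike and both OGD libraries were below them, with intervals that did not reach those of the controls. These intervals cover counting error only, and Tyrobp reached the minimum level for testing only in OGD libraries. Ptprc had its lowest count, 13, in OGD replicate 1, and Tyrobp had its highest, 29, in OGD replicate 2. Tyrobp counts per Fcer1g count were 0.750 (0.324 to 1.69) and 1.26 (0.704 to 2.28) in OGD libraries. In control libraries they were 0.179 (0.0538 to 0.468) and 0.250 (0.0995 to 0.554), and the interval of OGD replicate 1 overlapped both of these. Ptprc counts per Fcer1g count were 0.81 and 3.09 in OGD libraries, against 2.07 and 2.84 in control libraries, so there the groups overlapped. These ratios were chosen after the counts were seen, and with 2 against 2 libraries an exact permutation test cannot go below p = 0.333, so no test is given.

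**Figure D4:**
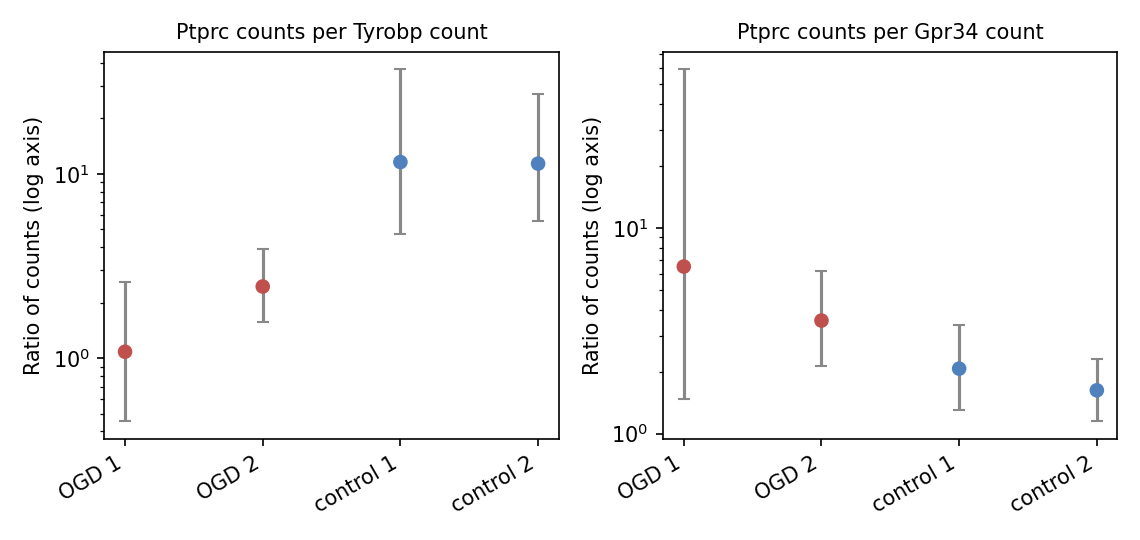
Ratio of counts within each library on log axes (red, OGD; blue, control), with exact 95% binomial intervals. Ptprc per Tyrobp was 1.08 and 2.45 in OGD libraries and 11.6 and 11.4 in control libraries. Ptprc per Gpr34 was 6.50 (1.47 to 59.3) and 3.55 (2.14 to 6.16) in OGD libraries. In control libraries it was 2.07 (1.30 to 3.38) and 1.63 (1.15 to 2.31), so the intervals of the groups overlapped. Gpr34 had 2 counts in OGD replicate 1.

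Other microglia and macrophage genes were then examined by a list of 38, which holds the 4 members. Of these, 14 matched a locus by name and the other 24, among them Itgam, Cx3cr1, P2ry12, Tmem119, Csf1r and Trem2, were not analysed here. Of the 14 loci, 11 were above 0 in all libraries, 6 were tested and 0 passed in edgeR. Among those 6, 2 had a log2 fold change above 0 and 4 below 0, where 49.7% and 50.3% of all tested loci did. The list's median was -0.39, beside a median of -0.0018 over all tested loci.

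Of the 10 loci that were not members, 7 had at most 7 counts in each library. Aif1, whose product IBA1 is a standard microglial stain, had 1 and 2 counts in OGD and 2 and 2 in control libraries. Spi1, the gene of the myeloid transcription factor PU.1 (listed as Sfpi1), had 1 and 0 counts in OGD and 1 and 0 in control libraries. Cd14, a lipopolysaccharide co-receptor gene, had 7 counts in OGD replicate 2 and 0 in the other 3 libraries, and Siglec1, a macrophage lectin gene, had 7 in control replicate 1 and 0 in the others. P2ry13, a purinergic receptor gene, had 5 and 7 counts in OGD and 1 and 6 in control libraries, Cd74, the invariant chain gene, 3 and 2 against 2 and 5, and Itgb2, an integrin subunit gene, 1 and 1 against 2 and 1. At these genes the rows were thus near the detection limit.

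Olfml3, an extracellular matrix gene enriched in microglia, had the highest mean CPM among these non-members. It had 23 and 36 counts in OGD and 27 and 29 in control libraries, a log2 fold change of 0.14 (SE 0.40; edgeR adjusted p = 1.00).

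Gpr34, a lysophosphatidylserine receptor gene of microglia, is singled out here after its values were seen. Its row (NONRATT030858.2, chromosome X, 10022987 to 10030535, 1783 bases) had 2 and 20 counts in OGD libraries and 28 and 56 in control libraries. It was lowest in OGD replicate 1 and highest in control replicate 2, the same libraries as Ptprc. Both OGD libraries were below both controls, at 0.753 and 8.34 CPM in OGD and 10.2 and 22.3 CPM in control libraries, and the log2 fold change of -1.85 (SE 0.99) did not pass (edgeR unadjusted p = 0.123, adjusted p = 1.00). The Euclidean distance between the centred log2(CPM + 1) profiles over 4 libraries was 0.93 between Ptprc and Gpr34, against 2.53 between Ptprc and Tyrobp and 1.42 between Ptprc and Fcer1g. The added 1 exceeds the 0.753 CPM of Gpr34 in OGD replicate 1 and so narrows its fall there. With that dependence, and with Gpr34 picked after its values were seen, these distances do not rank Gpr34 as nearer to Ptprc than Fcer1g is.

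By the same distance the loci most like each member were named, over 4 libraries and 2055 or 2056 symbol-bearing loci. For Ptprc these were Nfatc3 (distance 0.47), Timm8a1 (0.64) and RGD1308915, now Naa60 (0.77). For Tyrobp they were Anxa11 (0.27), Srxn1 (0.58) and Tmem206, now Pacc1 (0.62). In each case 1 locus lay within 0.5. For Fcer1g the nearest were Fam53a (0.05), Mdm2 (0.07) and Harbi1l, now Atg13 (0.10), and for Cd68 they were Cryzl1, Wdfy3 and Col4a1 (each 0.04). Within 0.5 lay 177 loci of Fcer1g and 897 of Cd68, so many loci had profiles like these.

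Summed over the 14 loci, the list stood at 37.3 and 90.5 CPM in OGD libraries and 67.0 and 106 CPM in control libraries. By CPM OGD replicate 1 was lowest and control replicate 2 highest, and both number 2 libraries stood above both number 1 libraries. The groups overlapped. Of the 14 loci, 5 had their lowest unscaled count in OGD replicate 1. The share over all loci was not computed, so this count is a description only. Without Ptprc and Gpr34, left out after their values were seen, the other 12 loci summed to 31.6 and 52.5 CPM in OGD and 35.7 and 47.0 CPM in control libraries, with OGD replicate 2 highest.

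Loci named for other leukocytes had few counts. Of 24 genes of T, B, natural killer, neutrophil and mast cells, Cd4, Cd8a and Csf3r matched a locus, and together they had 3 and 7 counts in OGD and 4 and 3 in control libraries, with 0 loci tested. Of 30 signalling partners of the ITAM adaptors and CD45, 3 matched. The Src-family kinase gene Fyn had 37 and 45 counts in OGD and 40 and 50 in control libraries. Csk, the kinase that opposes CD45 on Src-family kinases, had 33 and 27 against 27 and 21, and Fcgr2b, an inhibitory Fc receptor gene, had 7 and 6 against 5 and 19. Fyn and Csk are expressed in many cell types, and 0 of the 2 tested partners passed; their median log2 fold change was 0.15.

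Of 33 lysosome and phagosome genes, the class to which Cd68 belongs, 9 matched, 5 were tested and 0 passed. Their median log2 fold change was -0.13, with 2 above 0 and 3 below. Ctsb, the cathepsin B gene, had 22 and 59 counts in OGD and 32 and 22 in control libraries. Lamp1, a lysosomal membrane protein gene, had 24 and 30 against 34 and 28, and Grn, the progranulin gene, 28 and 23 against 19 and 26. The sums were 38.4 and 66.7 CPM in OGD and 42.6 and 53.0 CPM in control libraries, so the groups overlapped.

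The astrocyte label was set beside these values. Of 15 astrocyte genes 7 matched, led by Gfap, which encodes the glial intermediate filament protein, with 139 and 51 counts in OGD and 100 and 61 in control libraries. Ndrg2 had 33 and 39 against 33 and 27 counts, and Aldoc, the aldolase C gene, 17 and 15 against 26 and 13. The 7 loci summed to 19.1 and 11.1 FPKM in OGD and 15.9 and 9.90 FPKM in control libraries, compared with 5.57 and 9.89 FPKM in OGD and 7.83 and 9.68 FPKM in control libraries for the 14 microglia and macrophage loci. By CPM the astrocyte loci summed to 89.3 and 54.2 in OGD and 68.8 and 49.4 in control libraries, highest in OGD replicate 1. Without Gfap, left out after its values were seen, they summed to 36.9 and 32.9 CPM in OGD and 32.4 and 25.1 CPM in control libraries. By FPKM the microglia and macrophage sum was highest in OGD replicate 2. Such sums cover noncoding rows of different numbers of genes and are not shares of cells, and the part of culture make-up in the member loci's values was not tested.

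Sums of the remaining lists are given for scale. Fibroblast and meningeal names, 4 of 9, reached 122 and 162 FPKM in OGD and 81.9 and 175 FPKM in control libraries. Most of this came from Fn1, the fibronectin gene, which cultured astrocytes also express. The collagen gene Col1a1 had 20.4 and 36.6 FPKM in OGD and 19.4 and 40.6 FPKM in control libraries. Another collagen gene, Col3a1, had 10.6 and 12.5 FPKM against 8.50 and 10.8 FPKM. Neuron names, 6 of 15, summed to 8.23 and 8.34 FPKM in OGD and 7.14 and 8.13 FPKM in control libraries. Oligodendrocyte lineage names, 4 of 11, summed to 1.56 and 1.66 FPKM in OGD and 1.66 and 2.65 FPKM in control libraries. Endothelial and mural names, 3 of 12, summed to 1.49 and 1.22 FPKM in OGD and 0.472 and 0.540 FPKM in control libraries. Abcc9, a channel subunit gene of mural cells, gave 1.38 and 0.873 FPKM of these in OGD and 0.0973 and 0.261 FPKM in control libraries. Over the astrocyte list and these 4, 15 loci were tested and 0 passed in edgeR, with 2, Syn1 and Abcc9, at an unadjusted p under 0.05, which 2.33% of all tested loci had. Syn1, the synapsin gene of the neuron list, had 98 and 45 counts in OGD libraries and 2 and 1 in control libraries, a log2 fold change of 5.50 (SE 0.63; edgeR adjusted p = 0.185). Like Tyrobp, Syn1 reached the minimum level for testing only in the OGD libraries, so the filter itself favours a Syn1 locus that is higher there. The size of its fold change rests on control counts near 0.

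**Figure D5:**
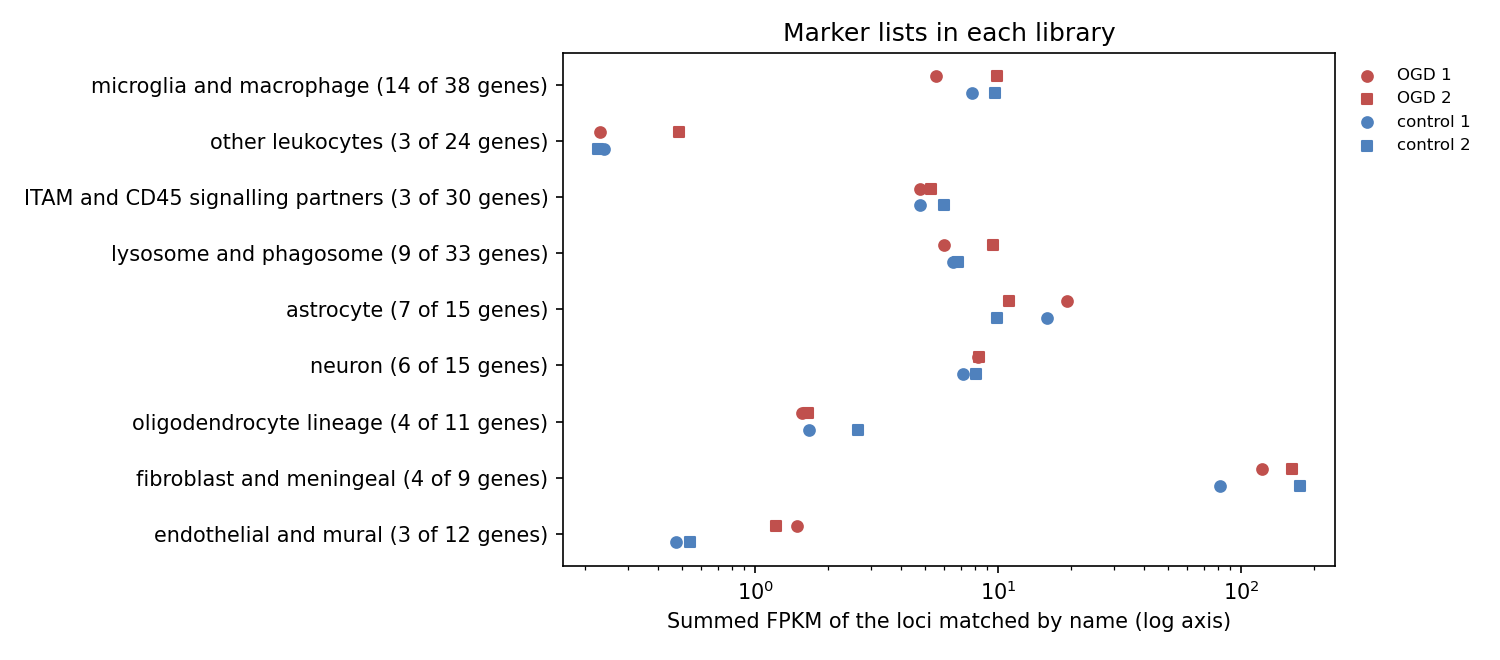
Summed FPKM (log axis) of the loci matched by name to each marker list, in the OGD libraries (red) and the control libraries (blue); circles are replicate 1 and squares replicate 2. Microglia and macrophage loci lie between 5.57 and 9.89 FPKM, beside astrocyte loci at 9.90 to 19.1 FPKM and other leukocyte loci below 1 FPKM.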

How the data were processed

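RNA of 4 libraries was sequenced, 2 OGD and 2 control, grouped and numbered by their titles. For each library there is a table, in which the authors give every transcript a read count and an FPKM value, per the file headers. The submitters' processing notes name HISAT2 and StringTie (no versions) and the mouse build mm9, although the identifiers are rat, so no build is printed. Which program counted the reads, and whether by strand, is not given in the sources used here.

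Counts of rows sharing a gene name on 1 chromosome were summed to loci. Both loci and rows as deposited went through edgeR 4.0.16 under R 4.3.3 (filterByExpr, TMM, quasi-likelihood F test on group alone, Benjamini-Hochberg adjusted p over all loci or rows, threshold 0.05), after checking the steps on simulated counts. Standard errors are approximate, from the fold change and the F statistic. CPM use TMM-adjusted totals; the deposited FPKM served for levels between genes and for the library totals behind them. Intervals are exact at 95% and, like the floor of 3 counts, cover counting error only. Alternatives were DESeq2 1.42.0, other scalings and filters, unsummed rows, the replicate number as a term and each library left out.

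The members and lists were chosen with earlier results of these data known. By the naming rule the text gives all members, in each list the 3 loci with the highest mean CPM where these bear on the members (the low microglia and macrophage loci, Syn1 and Abcc9 were chosen after their values were seen), and for each member the 3 nearest loci with a RefSeq symbol (not a LOC or RGD number) and a mean of at least 20 counts; profiles were log2(CPM + 1), centred. A few loci are not reported here and stand in no list or sum. No sequence of the rows was analysed here. Figures were drawn with matplotlib 3.10.9.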

Additional observations from a re-analysis of the deposited data

How the results depend on the processing

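The 4 member loci did not pass under any alternative that gave them a value. Their log2 fold changes over these alternatives lay between -0.24 and -0.19 for Cd68, -0.92 and -0.24 for Fcer1g, and 0.85 and 2.27 for Tyrobp; with at least 20 counts asked for in 2 libraries, Cd68 and Tyrobp were not tested. Ptprc lay between -2.54 and 0.06, and changed sign, at 0.0587, without OGD replicate 1; that alternative leaves 3 libraries. With the replicate block the log2 fold changes were -0.22 for Cd68, -0.57 for Fcer1g, -1.07 for Ptprc (unadjusted p = 0.0787) and 1.65 for Tyrobp (unadjusted p = 0.0169), each with an adjusted p of at least 0.873; what the number marks is not stated in the labels, and same-numbered libraries' deviations from their group means correlated at 0.304. The count of 8 loci called among all tested became 38 with DESeq2, 21 with the replicate block, 0 without a filter on low counts and 1 for rows as deposited, and 0 to 12 with a library left out. The 1 row called became 71 with DESeq2, 0 with the replicate block and 0 with each library left out. The cause was not tested; without the filter 16711 loci were adjusted over, and leaving out a library means a group of 1, assumed to vary like the other group. The log2 ratio of OGD to control of the microglia and macrophage sum was -0.43, -0.47 with plain library totals, and -1.21 to 0.07 with a library left out, above 0 only without OGD replicate 1 among these; without Ptprc and Gpr34, an alternative chosen after seeing the data, it was 0.03. Counts of 5 to 32 at Cd68, Fcer1g and Tyrobp limit the precision: an exact interval of a count of 13 runs from 6.92 to 22.2.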
